A study of Sus scrofa with 23 samples.

Results

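The extracellular matrix of skeletal muscle is the protein network around fibres, vessels and fat cells, and fibroblasts make most of it. Collagen I and III form the load-bearing fibrils of the connective tissue sheaths, collagen IV is the scaffold of basement membranes, fibronectin and fibrillin-1 form the fibrils and microfibrils on which other matrix is laid down, and small proteoglycans such as decorin and lumican coat collagen fibrils and set their width. In pigs the amount and cross-linking of this matrix is studied because it bears on growth of the muscle and on meat texture.

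The genes described here are 10 named members: FN1, FBN1, TIMP3, COL4A1, COL1A1, COL1A2, COL3A1, SPARC, DCN and LUM. A probe belonged to a member where the scanner files gave the member's symbol as its gene name or in parentheses in its description. This rule found 17 of 43603 probes, for 5 of the 10 genes: FN1, FBN1, COL1A2, SPARC and DCN. Another 13 probes, chosen after the annotation had been seen, carried a member's gene ID or full name in place of its symbol, and they added TIMP3, COL4A1, COL1A1 and LUM, and a second probe each of FN1 and COL1A2. COL3A1 was not analysed here, since the probe under its gene ID was described in the files as another gene. All 30 probes passed the filter on dim probes. All were well above background on 23 arrays, except FBN1 probe 3 with 22, so none of them entered through a single group in which it was high.

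Longissimus, a back muscle, was sampled from 23 pigs weighing 115 kg, and the RNA of each pig went on 1 single-colour array. Residual feed intake (RFI) is the feed an animal eats beyond what its growth and maintenance account for, and the study set a low-RFI strain against a high-RFI strain. There were 7 low-RFI pigs fed ad libitum, 8 restricted pigs, which belonged to the high-RFI strain and got as much feed as the low-RFI group, and 8 high-RFI pigs fed ad libitum. Low-RFI against high-RFI pigs compares the strains when both eat freely, restricted against high-RFI pigs compares feeding levels within the high-RFI strain, and low-RFI against restricted pigs compares the strains at a like feeding level. Age and sex are not given in the sources used here. Between 41.7% and 79.1% of probes lay well above background on an array of a low-RFI pig, between 45.9% and 76.5% in restricted and between 54.5% and 77.5% in high-RFI pigs. The arrays lay on 6 slides scanned on 2 days, every slide held all 3 groups, and slide 3 had the lowest median share, 50.2%. The number of arrays limits the precision. Of 9 defining markers of the muscle fibre, 8 had a probe, and all 8 were well above background on 23 arrays.

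The probes are 60-base oligonucleotides, and those on which the results turn are shown so that it is clear which part of each transcript was measured. The 2 fibronectin probes share a stretch of 54 bases, of which the first 30 are printed, so they are repeat readings of nearly the same site and not independent of each other.
FN1, shared by probes 1 and 2: gccaaagctttactactgtggaaagacaac
The 3 fibrillin-1 probes share no run of 20 bases with each other and read separate sites. Probes 1 and 3, like the TIMP3 probe and SPARC probe 6, have a frame free of stop codons. Capitals mark the TGT and TGC triplets, which code for cysteine, in the open frame that holds most of them: 2 in FBN1 probe 1, 3 in FBN1 probe 3, 3 in the TIMP3 probe and 2 in SPARC probe 6. These proteins are known for cysteine-rich folds.
FBN1 probe 1: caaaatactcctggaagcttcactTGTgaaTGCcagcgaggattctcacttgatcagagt
FBN1 probe 3: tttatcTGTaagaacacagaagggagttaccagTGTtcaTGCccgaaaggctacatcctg
TIMP3 probe: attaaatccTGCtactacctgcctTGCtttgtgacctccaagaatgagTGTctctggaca
SPARC probe 6: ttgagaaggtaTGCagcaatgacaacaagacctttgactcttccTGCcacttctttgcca
The COL1A1 probe and COL1A2 probe 2 are shown because the chains they measure are partners in the same trimer, and their longest common run is the 10 bases in capitals.
COL1A1 probe: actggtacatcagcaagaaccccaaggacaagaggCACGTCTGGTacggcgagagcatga
COL1A2 probe 2: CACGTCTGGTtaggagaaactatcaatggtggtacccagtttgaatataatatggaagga
SPARC probe 7 has the same sequence as probe 6 under another probe name. Among the 8 lumican probes 6, and among the 7 SPARC probes 6, share a run of 20 bases or more with another probe of the same gene. The 5 decorin probes share none.

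Levels are log2 signals relative to the array's 75th percentile, and each array holds RNA of the whole tissue, so that fewer cells of a type and less RNA per cell cannot be told apart. Differences are on the same log2 scale, with the standard error (SE) of the moderated limma fit of all 3 groups, and p-values were adjusted by Benjamini-Hochberg over 27803 probes. In low-RFI pigs against high-RFI pigs fed freely, fibronectin and fibrillin-1 had the widest gaps of the 9 measured genes, with FN1 at 0.620 times and FBN1 at 0.659 times the high-RFI level. No member probe passed the adjusted threshold of 0.05 in this comparison, in which 0.122% of all probes did. At an unadjusted p under 0.05, 7 of 30 member probes were lower and 0 were higher, against 3.91% and 7.19% of all probes. The 7 were the 2 probes of FN1, the 3 of FBN1, the TIMP3 probe and 1 of 5 DCN probes. The difference was below 0 on 25 of 30 member probes, with a median of -0.15, while 44.7% of all probes lay below 0 and the median of all probes was 0.02. The count of 7 was 4 without high-RFI replicate 2 or without low-RFI replicate 2, against 2.91% and 3.18% of all probes. It was 4 under median centring and 0 with normexp background correction, against 2.67% and 0.676% of all probes. With normexp background correction 29 of 30 member probes still lay below 0, against 37% of all probes. The median was -0.08 without high-RFI replicate 2 and -0.10 without low-RFI replicate 5. On the 17 probes found by symbol, 12 lay below 0, with a median of -0.07, and 5 were lower at an unadjusted p under 0.05. On the representative probes of the 9 genes, 7 lay below 0, with a median of -0.21, and 3 were lower at that p.

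Fibronectin, FN1, is a cell-adhesive glycoprotein that binds integrins and collagen. On probe 1 its levels were 3.24, 2.80, 3.03, 3.35, 2.42, 3.04 and 2.70 in the 7 low-RFI pigs. They ran from 3.06 over a median of 3.53 to 4.20 in restricted pigs, and from 3.32 over a median of 3.55 to 4.25 in high-RFI pigs. Of the low-RFI pigs 6 lay below every high-RFI pig, and the seventh lay just above the lowest of them. On probe 2 the low-RFI levels, 2.75 to 3.55, lay wholly below the high-RFI levels, 3.59 to 4.29, which held for 0.101% of all probes.

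The FN1 difference between low-RFI and high-RFI pigs was -0.69 (SE 0.17, 95% interval -1.03 to -0.34, adjusted p 0.118) on probe 1 and -0.68 (SE 0.16, adjusted p 0.121) on probe 2. It was negative on all 6 slides, at -0.98 to -0.26 on probe 1, and stood at -0.90 on scan day 1 and -0.45 on scan day 2. A slide held at most 4 arrays, and the share of all probes negative on every slide was not computed. Restricted minus high-RFI pigs gave -0.13 (SE 0.16, interval -0.46 to 0.21, adjusted p 0.876), and -0.32 (adjusted p 0.593) without the 4 arrays of slide 3. Against restricted pigs the low-RFI pigs stood at -0.56 (SE 0.17, adjusted p 0.219) on probe 1 and -0.57 (SE 0.16, adjusted p 0.200) on probe 2, and 5 of 6 slides gave a negative value. Without slide 3 this last difference was -0.35 (adjusted p 0.664). With normexp background correction it was 0.02. The order of the FN1 means was low-RFI, restricted, high-RFI, and neither pair of neighbours in it passed the adjusted threshold.

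Fibrillin-1, FBN1, builds the microfibrils of elastic tissue. On probe 1 it had levels of -1.33, -1.93, -1.63, -1.79, -1.73, -1.57 and -1.87 in low-RFI pigs. It ran from -1.73 over a median of -1.58 to -1.02 in restricted pigs, and from -1.77 over a median of -1.14 to -0.46 in high-RFI pigs. All 7 low-RFI pigs and 7 of 8 restricted pigs lay below the high-RFI median, but the groups overlapped. Of the 8 high-RFI pigs 5 lay above every low-RFI pig and 3 above every restricted pig. The lowest high-RFI pig, replicate 3, stood at -1.77.

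On that probe low-RFI minus high-RFI pigs gave -0.60 (SE 0.15, interval -0.92 to -0.28, adjusted p 0.143), and probes 2 and 3 gave -0.38 and -0.52. Restricted minus high-RFI pigs gave -0.43 (SE 0.15, interval -0.74 to -0.13, adjusted p 0.281), with -0.11 on probe 2 and -0.34 on probe 3. Both differences of probe 1 were negative on all 6 slides, at -1.21 to -0.07 for low-RFI and -0.78 to -0.19 for restricted minus high-RFI pigs. These comparisons share the high-RFI pigs. Low-RFI minus restricted pigs gave -0.17 (interval -0.49 to 0.15, adjusted p 0.773), and this pair of neighbours did not pass the threshold either. Without high-RFI replicate 3 the low-RFI against high-RFI difference was -0.70 and passed the threshold, with an adjusted p of 0.0465 as the lowest of the 23 fits that left out 1 pig. With normexp background correction low-RFI minus high-RFI pigs gave -0.28 and restricted minus high-RFI pigs 0.03.

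**Figure D1:**
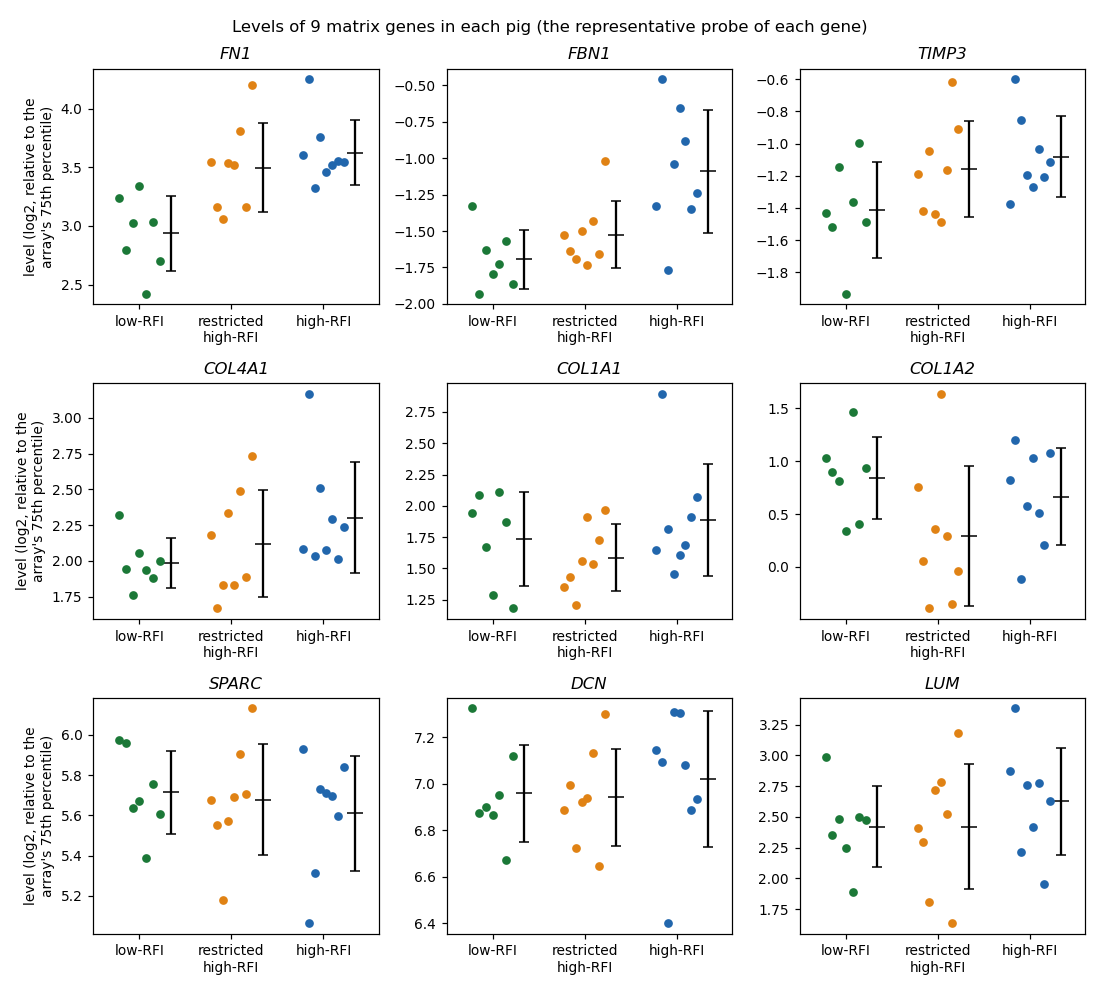
Level of 9 matrix genes in each pig (log2, relative to the array's 75th percentile), 1 panel for each gene on its representative probe, the brightest found by symbol, or by other annotation for TIMP3, COL4A1, COL1A1 and LUM. Points are pigs in order of replicate number, and black bars are the mean and SD of 7 low-RFI, 8 restricted and 8 high-RFI pigs. The FN1 means are 2.94 in low-RFI, 3.50 in restricted and 3.63 in high-RFI pigs, and the FBN1 means are -1.69, -1.53 and -1.09 in the same order.

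TIMP3, a matrix-bound inhibitor of metalloproteinases, and COL4A1, a chain of basement membrane collagen, had smaller gaps. TIMP3 averaged -1.41 ± 0.30 in low-RFI (SD, n = 7), -1.16 ± 0.30 in restricted and -1.08 ± 0.25 in high-RFI pigs (SD, n = 8 each). Low-RFI minus high-RFI pigs gave -0.33 (SE 0.14, adjusted p 0.395) for TIMP3, negative on all 6 slides at -0.56 to -0.01. Restricted minus high-RFI pigs gave -0.08 (adjusted p 0.930). COL4A1 averaged 1.99 ± 0.18 in low-RFI, 2.12 ± 0.37 in restricted and 2.30 ± 0.39 in high-RFI pigs. Its low-RFI minus high-RFI difference, -0.32 (SE 0.17, adjusted p 0.504), was also negative on all 6 slides, at -1.08 to -0.03. It was -0.19 without high-RFI replicate 2. That pig stood at 3.17, with the next high-RFI pig at 2.51.

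Both collagen I chains had their lowest means in restricted pigs. COL1A1 encodes the chain present in a pair in each collagen I molecule, and COL1A2 the chain that completes it. COL1A2 probe 2 had a median of 4.47 and a highest level of 4.65 in low-RFI pigs, and ran from 3.55 over a median of 4.06 to 4.49 in restricted pigs, and from 4.11 over a median of 4.40 to 5.25 in high-RFI pigs. Of the restricted pigs 6 of 8 lay below every high-RFI pig, while low-RFI and high-RFI pigs overlapped over most of their range.

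On that probe restricted minus high-RFI pigs gave -0.41 (SE 0.14, interval -0.70 to -0.11, adjusted p 0.300) and low-RFI minus restricted pigs gave 0.39 (SE 0.15, adjusted p 0.363). Probe 1, at another site, gave -0.37 (SE 0.25, adjusted p 0.673) and 0.55 (SE 0.26, adjusted p 0.472). Low-RFI minus high-RFI pigs gave -0.02 and 0.18 on probes 2 and 1, with intervals of -0.32 to 0.29 and -0.35 to 0.71. COL1A1 averaged 1.74 ± 0.37 in low-RFI, 1.59 ± 0.27 in restricted and 1.89 ± 0.45 in high-RFI pigs, and restricted minus high-RFI pigs gave -0.30 (SE 0.18, adjusted p 0.620). The COL1A1 value rests in part on high-RFI replicate 2, at 2.89 with the next at 2.07. Without it, restricted minus high-RFI pigs gave -0.15, and low-RFI minus high-RFI pigs gave -0.01 in place of -0.15.

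In restricted against high-RFI pigs no member probe passed the adjusted threshold, which 0.0036% of all probes passed. At an unadjusted p under 0.05, 5 of 30 member probes were lower and 0 higher, against 4.81% and 4.95% of all probes. The 5 were FBN1 probes 1 and 3, COL1A2 probe 2, DCN probe 4 and LUM probe 7. The difference was below 0 on 26 of 30 probes, against 46.9% of all probes, with a median of -0.18 against 0.01. The count of 5 was 3 without high-RFI replicate 2 or without restricted replicate 2, against 3.88% and 4.31% of all probes. The median was -0.10 without high-RFI replicate 2 or without restricted replicate 3. On the 17 probes found by symbol, 13 lay below 0, with a median of -0.08, and 3 were lower at an unadjusted p under 0.05. On the representative probes of the 9 genes, 8 lay below 0, with a median of -0.18, and 1 was lower at that p. In low-RFI against restricted pigs 0 member probes passed, against 0.162% of all probes. At an unadjusted p under 0.05, 2 were lower, both of FN1, and 2 were higher, both of COL1A2, against 4.61% and 5.57% of all probes. The signs were mixed, with 11 of 30 probes lower, against 45.3% of all probes. That count was 21 without low-RFI replicate 1 or without restricted replicate 3, against 44.8% and 44.5% of all probes. It was 17 without restricted replicate 7, against 44.1%, and 5 with normexp background correction, against 60.3%. No direction therefore holds for the members here.

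Over the 3 groups together the F test also called 0 member probes, against 0.137% of all probes. The lowest adjusted p were 0.113 and 0.116 for the FN1 probes and 0.149 for FBN1 probe 1.

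**Figure D2:**
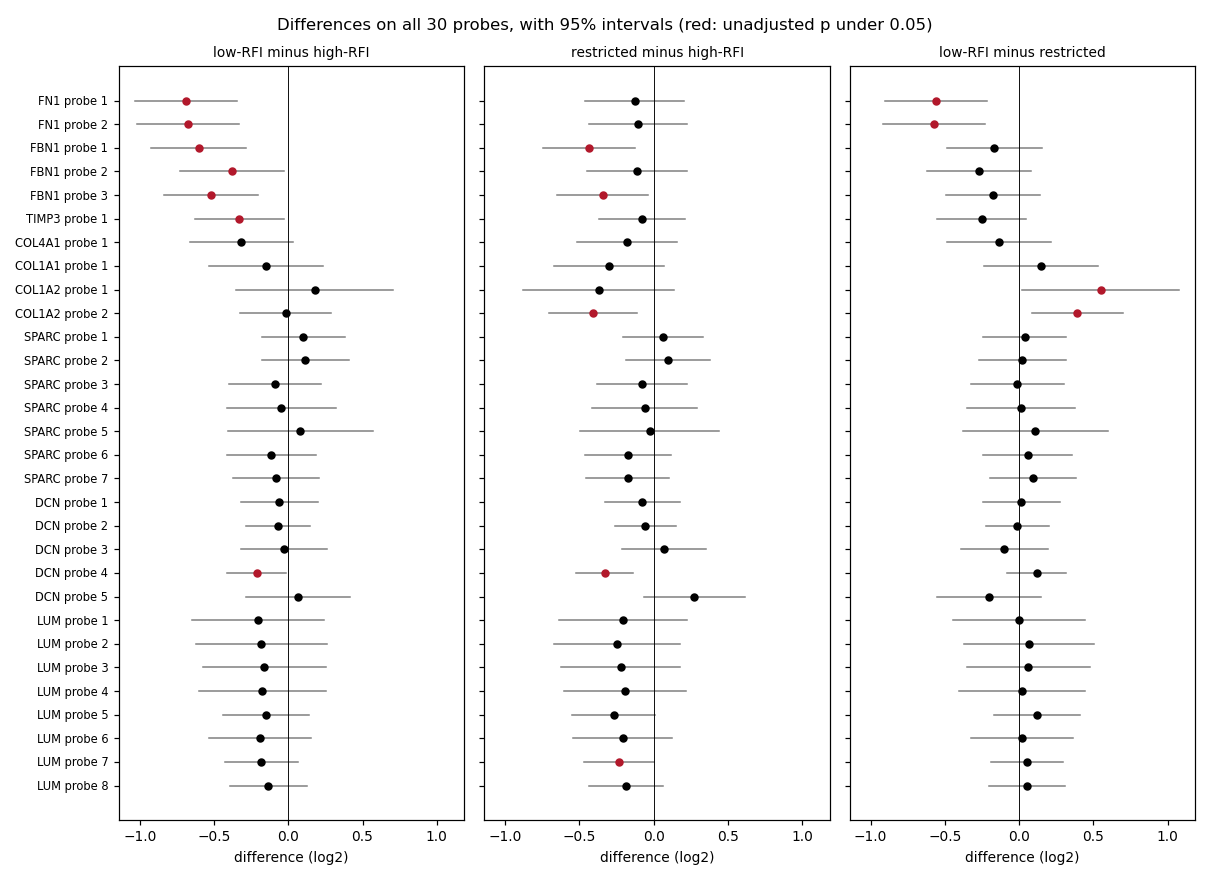
Difference (log2) on each of the 30 member probes in the 3 comparisons, with 95% intervals of the limma fit; red points have an unadjusted p under 0.05 and none passes the adjusted threshold. FN1 and FBN1 lie left of 0 on each of their probes in all 3 comparisons. FN1 is red in both comparisons of low-RFI pigs. FBN1 is red on 3 probes in low-RFI and on 2 in restricted minus high-RFI pigs. COL1A2 lies left of 0 in restricted minus high-RFI and right of 0 in low-RFI minus restricted pigs.

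SPARC, a collagen-binding matricellular protein, had small differences on its 7 probes. Low-RFI minus high-RFI pigs gave -0.12 to 0.11 and restricted minus high-RFI pigs -0.18 to 0.10, with 4 and 5 of the 7 probes below 0. On SPARC probe 1, the brightest, low-RFI pigs ran from 5.39 to 5.97, restricted pigs from 5.18 to 6.13 and high-RFI pigs from 5.07 to 5.93, and the interval of low-RFI minus high-RFI pigs was -0.18 to 0.38. The 95% intervals of all 7 probes took in 0 in each comparison, as the plot of differences shows.

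Lumican, LUM, had small negative differences on all 8 probes, -0.21 to -0.14 in low-RFI minus high-RFI pigs and -0.27 to -0.19 in restricted minus high-RFI pigs. Only probe 7 reached an unadjusted p under 0.05, at 0.0499 in restricted pigs (adjusted p 0.512). On probe 1 the levels were 1.89 to 2.99 in low-RFI, 1.64 to 3.18 in restricted and 1.95 to 3.38 in high-RFI pigs, so that the groups overlapped over most of their range. On that probe leaving out 1 pig moved the difference between -0.30 and -0.10 in low-RFI and between -0.31 and -0.09 in restricted minus high-RFI pigs. The values nearest 0 came without high-RFI replicate 2 (-0.10) and without restricted replicate 7 (-0.09). Since most of these probes share sequence, their like direction is not 8 separate readings.

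Decorin, DCN, split by probe. Probes 1 and 2 differed by -0.08 and -0.06 in restricted minus high-RFI pigs, while probe 4 gave -0.33 (SE 0.09, interval -0.52 to -0.14, adjusted p 0.179) and probe 5 gave 0.27 (SE 0.16, interval -0.07 to 0.61, adjusted p 0.620). On probe 4 levels were 3.30, 3.54, 3.35, 3.28, 3.36, 3.55, 3.30 and 3.73 in restricted pigs and 4.03, 3.93, 3.38, 3.84, 3.82, 3.74, 3.58 and 3.74 in high-RFI pigs. All 8 restricted pigs lay below the high-RFI median and 5 of them below every high-RFI pig. Low-RFI minus high-RFI pigs gave -0.21 (SE 0.10, adjusted p 0.415) on probe 4 and 0.07 on probe 5. The probes read different parts of the transcript, and no direction holds for the gene as a whole.

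Slide took a large part of the spread of decorin. It accounted for 44.4% to 61.8% of the variance within groups on the 5 DCN probes and 9.89% to 47.0% on the 3 FBN1 probes, against 24.8% on FN1 probe 1 and 11.3% on the COL1A1 probe. On DCN probe 1 the restricted minus high-RFI difference was -0.13 (SE 0.09) with slide as a block and -0.08 (SE 0.12) without. On probe 4 it was -0.34 (SE 0.08, adjusted p 0.152) with the block.

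**Figure D3:**
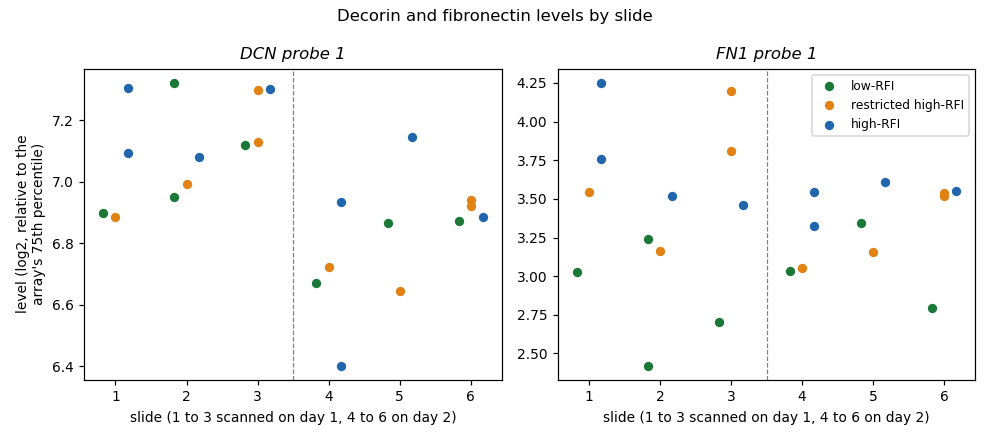
Level (log2, relative to the array's 75th percentile) of DCN probe 1 and FN1 probe 1 by slide, each point 1 pig, coloured by group; the dashed line parts the scan days. DCN levels shift with the slide, with the lowest pig, of the high-RFI group, on slide 4 at 6.40. On FN1 each low-RFI pig lies below every high-RFI pig of its own slide.

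Other matrix genes were taken from lists by role, and 34 had a kept probe. None passed the adjusted threshold in any comparison. In low-RFI against high-RFI pigs 23 were lower and 11 higher, with a median of -0.11, against 44.7% of all probes lower and a median of 0.02. At an unadjusted p under 0.05, 0 were lower and 1 was higher, against 3.91% and 7.19% of all probes. The higher gene was vitronectin, VTN, an adhesive plasma and matrix protein, at 0.42 (SE 0.16, adjusted p 0.320). Its list, adhesive and matricellular proteins, had 4 of 7 lower and a median of -0.51. The 4 lower genes, added after their values were seen, were TNC, CCN2, CYR61 and SPP1, at -0.69 (SE 0.39), -0.59 (SE 0.39), -0.51 (SE 0.51) and -1.10 (SE 1.08). Besides VTN the higher genes, added in the same way, were POSTN at 0.21 (SE 0.38) and THBS1 at 0.004 (SE 0.08). All 6 measured genes of the list of fibrillar and associated collagens were lower, at -0.30 to -0.01, with the lowest p for COL5A2, a chain of collagen V, at -0.23 (SE 0.14). The collagen folding and cross-linking list had 3 of 3 lower, led by the prolyl hydroxylase subunit P4HA1 at -0.28 (adjusted p 0.586). Of 7 genes of TGF-beta signalling, the pathway that drives matrix synthesis in fibroblasts, 6 were lower, led by TGFB2 at -0.30 (SE 0.18, adjusted p 0.571). The protease MMP14 stood at 0.15 and the collagen receptor DDR2 at 0.29 (adjusted p 0.497), with 4 of 6 proteases and inhibitors and 3 of 5 receptors and fibroblast markers higher.

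In restricted against high-RFI pigs 21 of the 34 were lower, against 46.9% of all probes, with a median of -0.08 against 0.01. COL5A2 stood at -0.24, the fibroblast surface marker THY1 at -0.33 (adjusted p 0.491) and SMAD3, a mediator of TGF-beta signals, at 0.34 (adjusted p 0.375). SPP1, a matricellular cytokine, stood at -1.96 with an SE of 1.04, and PLOD2 at 0.06 and TIMP2 at 0.25. In low-RFI against restricted pigs 24 of 34 were lower, against 45.3% of all probes, with a median of -0.05 against 0.02. DDR2 stood at 0.44 (SE 0.15, adjusted p 0.311), VTN at 0.36, P4HA1 at -0.32, SMAD3 at -0.26, COL6A2 at -0.19 and MMP14 at 0.15. The lists of basement membrane, proteoglycans and elastic fibre, searched by symbol alone, gave no kept probe. By symbol TIMP3, COL4A1, COL1A1 and LUM were not found either, so such genes may be on the array under other annotation.

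Markers of other cell types were also mostly lower in low-RFI than in high-RFI pigs, a comparison in which 44.7% of all probes were lower. In low-RFI against high-RFI pigs all 10 measured adipocyte markers were lower, with a median of -0.63, and their mean level ran from 0.36 to 1.90 in low-RFI, 0.48 to 2.31 in restricted and 0.16 to 3.01 in high-RFI pigs. LIPE, the hormone-sensitive lipase of fat cells, stood at -0.72 (SE 0.26, adjusted p 0.290). Of 5 endothelial markers 4 were lower, with von Willebrand factor, VWF, at -0.38 (SE 0.14, adjusted p 0.298), and of 7 leukocyte markers 6 were lower, with S100A8 at -1.19 (SE 0.52, adjusted p 0.392). The mean endothelial level ran from 1.06 to 1.48 in low-RFI, 0.96 to 1.69 in restricted and 1.18 to 1.96 in high-RFI pigs. The mean leukocyte level ran from -2.32 to -1.34 in low-RFI, -2.43 to -0.86 in restricted and -1.90 to -0.49 in high-RFI pigs. Of 3 pericyte and smooth muscle markers 1 was lower, RGS5 at -0.39 (adjusted p 0.435). The other 2, added after their values were seen, were higher, ACTA2 at 0.20 (adjusted p 0.444) and CNN1 at 0.33 (adjusted p 0.616). Of 8 muscle fibre markers 7 were higher, with a median of 0.15. None of these passed the adjusted threshold, each kept marker was well above background on at least 14 arrays, and the part of these cells in the FN1 and FBN1 differences was not tested.

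In restricted against high-RFI pigs, where 46.9% of all probes were lower, 7 of 10 adipocyte markers were lower, with a median of -0.14 and SCD at -0.91. Leukocyte markers had 5 of 7 lower, with LYZ at -1.12, and endothelial markers 3 of 5, with a median of -0.02 and PECAM1 at -0.39. Of the pericyte and smooth muscle markers 2 of 3 were lower, with RGS5 at -0.33. Of the muscle fibre markers 6 of 8 were higher, with DES at 0.11. In low-RFI against restricted pigs, where 45.3% of all probes were lower, 8 of 10 adipocyte markers were lower, with a median of -0.41 and LIPE at -0.69. Endothelial markers had 3 of 5 lower and 2 higher, with VWF at -0.35. Of the leukocyte markers 5 of 7 were lower, with a median of -0.12, though LYZ, with the smallest p, stood at 0.93. Pericyte and smooth muscle markers had 2 of 3 higher, with CNN1 at 0.45, and muscle fibre markers 7 of 8, with TNNI2 at 0.14.

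Within groups the members varied together in part. Over 36 pairs of the 9 genes on their representative probes, with group means removed, 30 had a positive Pearson's r across the 23 pigs. By a permutation test with 100000 resamples 8 had an adjusted p under 0.05. Pairs of other genes were not tested in this way. Whether these counts are particular to matrix genes can therefore not be told. FN1 and COL4A1 had r = 0.80 (adjusted permutation p 0.00054) and Spearman's rho 0.70 (adjusted permutation p 0.00522). FN1 and LUM had r = 0.77 (adjusted permutation p 0.00054) and rho 0.71 (adjusted permutation p 0.00522). Both relations held without the 2 pigs farthest from the median of FN1, at r = 0.63 and 0.64, on scan day 1 at 0.85 and 0.91, and on scan day 2 at 0.58 and 0.56. They were 0.77 and 0.78 with slide means also removed.

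FBN1 joined the same genes. Its r was 0.70 with COL4A1 (adjusted permutation p 0.00171), 0.68 with DCN (0.00396), 0.63 with FN1 (0.00786) and 0.61 with LUM (0.00967), and rho was 0.61, 0.54, 0.55 and 0.51, with adjusted permutation p of 0.0155, 0.0383, 0.0383 and 0.0577. With slide means also removed the 4 values of r were 0.60, 0.49, 0.64 and 0.52. FBN1 with DCN had r = 0.46 on scan day 1 and 0.48 on scan day 2, FBN1 with COL4A1 had 0.66 and 0.52, and FBN1 with LUM had 0.70 and 0.31. The FN1 and FBN1 relation had r = 0.38 without the 2 farthest pigs, and was 0.72 and 0.44 on the 2 scan days. The last pairs were COL4A1 with LUM, r = 0.70 (adjusted permutation p 0.00171, rho 0.61), and DCN with LUM, r = 0.61 (adjusted permutation p 0.00967, rho 0.65). TIMP3, COL1A1, COL1A2 and SPARC had no pair that passed. For COL1A2 this holds for probe 1, with group means of 0.29 to 0.84. Its brighter probe 2, with group means of 4.03 to 4.44, was not correlated with the other genes.

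**Figure D4:**
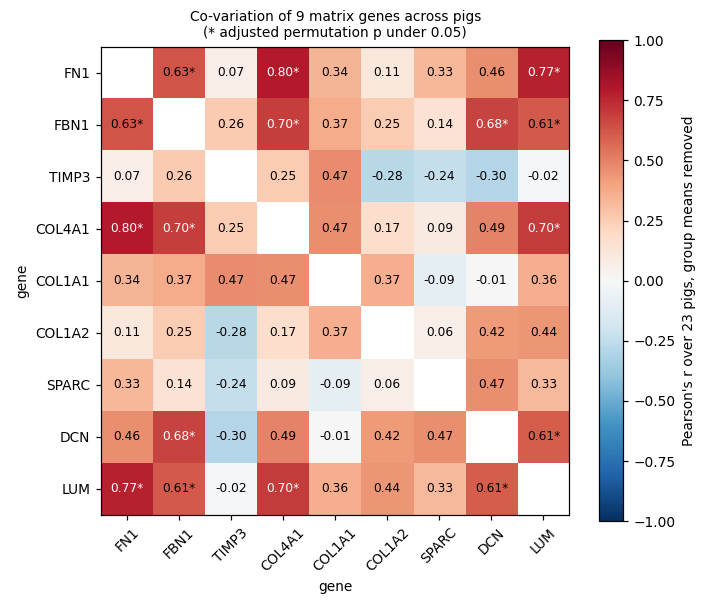
Pearson's r between 9 matrix genes across 23 pigs, with group means removed; stars mark pairs with an adjusted permutation p under 0.05 among 36 pairs. FN1, FBN1, COL4A1 and LUM form a block with r from 0.61 to 0.80, and TIMP3 and DCN have the lowest r, -0.30.

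A second family of 36 relations, added after the data were seen, set each member against the mean level of 4 marker lists, also with group means removed. TIMP3 followed the endothelial list, with r = 0.67 (adjusted permutation p 0.0151), rho 0.68 (adjusted permutation p 0.0155), r = 0.69 without the 2 farthest pigs, and 0.88 and 0.56 on the 2 scan days. LUM with the adipocyte list had r = 0.58 and COL4A1 with the endothelial and adipocyte lists 0.61 and 0.57 (adjusted permutation p 0.0395 for each), but for these rho did not pass, with adjusted permutation p of 0.130, 0.255 and 0.189. The COL4A1 relations were 0.21 and 0.24 without the 2 farthest pigs. FN1 had r = 0.51 with the leukocyte list and 0.49 with the endothelial list (adjusted permutation p 0.0871 for each), and 0.41 with the adipocyte list (adjusted permutation p 0.136). Without the 2 farthest pigs these were 0.32, 0.09 and 0.03. On scan day 1 the FN1 and leukocyte relation had r = 0.89 and on scan day 2 it had -0.03, and the FN1 and endothelial relation had 0.70 and -0.11. FBN1 and the adipocyte list had r = 0.41 (adjusted permutation p 0.136), and 0.20 without them.

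The pigs that stood at the ends of their groups were often the same across genes. High-RFI replicate 2 had the highest level of its group on 7 of 9 genes, and restricted replicate 8 on 7 of 9. High-RFI replicate 3 and restricted replicate 3 had the lowest level on 4 of 9 each. The share of all probes on which these pigs stood highest or lowest was not computed. Several of the 9 genes also varied together, so these counts are not of separate readings. High-RFI replicate 2 also had the highest mean level of adipocyte and endothelial markers in its group, 3.01 and 1.96, and restricted replicate 8 likewise, 2.31 and 1.69. The part of these cells in the matrix levels of the 2 pigs was not tested. Without high-RFI replicate 2, low-RFI minus high-RFI pigs gave 24 of 30 probes below 0, of which 4 reached an unadjusted p under 0.05, where 45.1% and 2.91% of all probes did so. Without slide 3 the counts were 24 and 6, against 43.3% and 3.67% of all probes. In restricted minus high-RFI pigs they were 29 and 10 without slide 3, against 44.1% and 4.12% of all probes.

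Among 2799 other named genes, those most like FN1 over the 23 arrays, group differences included, were ANXA2, r = 0.81, SAL1, r = 0.79, and SLC1A5, r = 0.78. SAL1, salivary lipocalin, stood at -1.76 in low-RFI minus high-RFI pigs and ANXA2, an annexin, at -0.40. Those most like FBN1 were IGFBP4, an IGF binding protein, r = 0.80, MAN1A2, r = 0.80, and PABPC1, r = 0.75. IGFBP4 stood at -0.50 in low-RFI minus high-RFI pigs and -0.54 in restricted minus high-RFI pigs. Those most like COL1A1 were MSN, r = 0.78, PTMA, r = 0.77, and SLC38A1, r = 0.76. These values rank genes by likeness over arrays that share slides and groups, and are a description.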

How the data were processed

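Per the labels' protocols, RNA was extracted with Trizol and labelled with Cy3. Per the file headers, the spot intensity values had been background-subtracted by Feature Extraction (version 10.7.3.1) before deposit. The submitters' processing notes list R (version 2.10.0). In the log2 table that the authors deposited (26410 probes, column medians of 0), each column differed from log2 of the processed signal by 1 constant, and it served as an alternative.

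Log2 processed signals had each array's 75th percentile subtracted. Spots with an outlier flag were dropped, 1417 control spots were omitted, and repeat spots were averaged. The filter asked for a signal well above background on 6 or more arrays within a group, and 27803 of 43603 probes met it. The 3 groups were fitted in limma 3.58.1 under R 4.3.3, tested on simulated data first. Members and lists were chosen with earlier results of these data known. All members and probes are named; of other genes, those passing or else the smallest p of each role group in a comparison, and the 3 genes most like FN1, FBN1 and COL1A1; values for a further gene are given with it. No member had a bound or a saturated spot. Alternatives were other scalings, background corrections, filters, variance settings and blocks, the mean of a gene's probes, and leaving out slide 3 or each pig. 1 list of cell markers is not reported here.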

Additional observations from a re-analysis of the deposited data

Results flagged for a closer look

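Of 27 sets of levels, 9 genes in 3 groups, 5 held a pig that stood apart from the rest of its group by Dixon's criterion, where chance alone flags about 1 in 20. In high-RFI pigs replicate 2 stood above the others on FN1, at 4.25 with the next at 3.76, on COL4A1, at 3.17 with the next at 2.51, and on COL1A1, at 2.89 with the next at 2.07. High-RFI replicate 3 stood below the others on DCN, at 6.40 with the next at 6.89. In restricted pigs replicate 8 stood above the others on FBN1, at -1.02 with the next at -1.43.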

How the results depend on the processing

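FN1 and FBN1 stayed lower in low-RFI than in high-RFI pigs in every alternative run, at -0.76 to -0.60 and -0.70 to -0.51 when 1 pig was left out (adjusted p 0.0774 to 0.240 and 0.0465 to 0.263). Over the 30 member probes 22 to 29 were lower in this comparison under the other alternatives, and 23 to 27 with 1 pig left out. Those lower at an unadjusted p under 0.05 numbered 0 to 7 and 4 to 8, against 0.676% to 4.87% and 2.91% to 4.41% of all probes. No member probe passed the adjusted threshold in the reported fit, and 0 to 1 did with 1 pig left out.

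The signs that turned were of small differences or came with normexp background correction, which on 5 of 23 arrays gave values correlated at only 0.613 to 0.849 with the processed signal and moved the median difference of all probes to 0.22 in restricted minus high-RFI and -0.14 in low-RFI minus restricted pigs. The cause of the turned signs was not tested. In low-RFI minus restricted pigs DCN stood at -0.013 under median centring, -0.0083 under quantile normalization, -0.0087 with normexp from negative controls, -0.00348 with the deposited values and -0.037 with the mean of a gene's probes. LUM stood at -0.029 under median centring and -0.019 with the deposited values. Normexp background correction gave SPARC -0.14 in low-RFI and -0.79 in restricted minus high-RFI pigs, FBN1 0.033 and TIMP3 0.21 in restricted minus high-RFI pigs, and FN1 0.017 and COL4A1 0.17 in low-RFI minus restricted pigs. The mean of a gene's probes gave SPARC -0.0054 in low-RFI and -0.051 in restricted minus high-RFI pigs. Without slide 3, SPARC stood at -0.034 in restricted minus high-RFI pigs and COL4A1 at 0.025 in low-RFI minus restricted pigs. With 1 pig left out, SPARC ran from -0.013 to 0.14 in restricted minus high-RFI pigs. In low-RFI minus restricted pigs SPARC then ran from -0.034 to 0.10, DCN from -0.045 to 0.066 and LUM from -0.11 to 0.11.

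Over all probes 34 passed in low-RFI against high-RFI, 1 in restricted against high-RFI, 45 in low-RFI against restricted pigs and 38 in the F test. In that order of comparisons, normexp background correction gave 0, 0, 0 and 0, no filter on dim probes 22, 0, 18 and 22, trend and robust variance 52, 0, 76 and 92, and leaving out slide 3 gave 18, 0, 15 and 20. Slide as a fixed block gave 19, 0 and 25 in the 3 comparisons, and as a random block 2 in restricted against high-RFI, 98 in low-RFI against restricted pigs and 137 in the F test. The filter on all arrays gave 18 in low-RFI against high-RFI pigs and 67 in the F test. The deposited values gave 20 in low-RFI against high-RFI and 21 in low-RFI against restricted pigs. In restricted against high-RFI and low-RFI against restricted pigs, median centring gave 0 and 23, and fits of 2 groups alone 0 and 25. Normexp from negative controls gave 0 in restricted against high-RFI pigs. With 1 pig left out the counts ran from 22 to 40, 0 to 7, 18 to 68 and 24 to 70.

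The correlation of the deviations of same-numbered pigs ran from -0.27 to 0.27 over 7 pairs of low-RFI and high-RFI pigs (2 over 0.1), from -0.15 to 0.33 over 8 pairs of restricted and high-RFI pigs (4 over 0.1) and from -0.30 to 0.32 over 7 pairs of low-RFI and restricted pigs (1 over 0.1). Since not every pair was over 0.1 in any of these, the numbers were not taken to pair pigs. Pigs of unlike number were not compared, so these values cannot decide whether the numbers pair pigs. With the replicate number as a block, 0 probes passed in restricted against high-RFI, 20 in low-RFI against restricted pigs and 19 in the F test. FN1 then stood at -0.64 (adjusted p 0.220) and FBN1 at -0.58 (adjusted p 0.264) in low-RFI minus high-RFI pigs.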
